A study of Mus musculus with 8 samples.

Results

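The genes described here encode 8 enzymes that break down amino acids: Tat, Tdo2, Sds, Gls2, Got1, Gpt, Hal and Prodh. They were chosen by function, with earlier results of these data known. Around each gene start the chromatin occupancy of the glucocorticoid receptor (GR) was read from lists of ChIP-seq peaks. Overlapping peaks of the 6 GR lists were merged into 51431 sites, and a site was assigned to a gene when its centre lay within 50 kb of the gene start (mm10, GENCODE release M21). In all, 113 sites lay around 7 of the 8 genes, and no site was listed within 50 kb of Prodh. These 113 are called member sites below.

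The livers came from adult male C57BL/6J mice on regular chow. The 3 groups of 2 GR libraries were ctrl. (mice fed during the night), cal. res. (mice on caloric restriction) and CORT (night-fed mice that also received corticosterone by injection, the main glucocorticoid of mice). All livers were wild type and, per the study's methods, were collected at the same time of day. The methods also describe the CORT mice as adapted to handling and injected daily, on a shorter protocol than caloric restriction. The sample titles do not say whether ctrl. mice were injected. Age, handling and injection may thus differ between CORT and the other groups. FOXO1, a transcription factor of the fasted state, was mapped in cal. res. livers, and its 2 libraries were merged by the authors before peak calling, so the FOXO1 list has no replicate and no ctrl. or CORT counterpart.

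Amino acid breakdown feeds carbon into glucose production and nitrogen into urea, and in the liver it is raised by fasting and by glucocorticoids. GR is a receptor that enters the nucleus when it binds the hormone and settles on DNA, classically at the glucocorticoid response element (GRE), a short inverted repeat. Tat, tyrosine aminotransferase, is a textbook GR target, and Tdo2, tryptophan dioxygenase, opens the main route of tryptophan breakdown. Hal, histidine ammonia-lyase, and Sds, serine dehydratase, release ammonia from their amino acids. Gls2, the liver-type glutaminase, does so from glutamine. Got1 and Gpt are the cytosolic aspartate and alanine aminotransferases, and Prodh, proline dehydrogenase, starts the oxidation of proline.

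The deposited lists held 13667 to 48060 rows, with the fewest in ctrl. replicate 2 and the most in CORT replicate 2. The study names a nominal depth, but read totals per library were not analysed here, so the depth of each library is unknown. Fold enrichment, a ratio of the pileup at the summit to the local background, was therefore compared only by its rank inside each list. A percentile of 100 marks the strongest region of a list, and a library without a peak at a site counts as 0 in a mean percentile. A site counted as held by a group if neither of its libraries lacked a peak at that site. A site was gained when cal. res. or CORT held it and ctrl. did not. Library names in the labels fall into a series shared by ctrl. replicate 2 and both cal. res. libraries and a series shared by the CORT libraries and ctrl. replicate 1. No label calls a name series a batch, and cal. res. against CORT cannot be told apart from the name series. The study's methods call the libraries of a group biological replicates, and the labels do not tie them to animals. The p-values measure the spread between these libraries. As a check of the tissue, sites held by all 3 groups within 50 kb numbered 8 at Alb, 7 at Fgb, 2 at Apob and 1 at Ttr, which are liver genes. No peak was listed near the muscle gene Myod1 or the insulin gene Ins2. The T cell gene Cd3e had 2 such sites, as many as Apob, and the glial gene Gfap had none but had a peak in 5 libraries, so peak positions mark the tissue only in part.

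The strongest site of each gene carried the DNA shown first, because these 7 windows hold the highest-ranked GR peaks around the 7 genes. Each is the RefSeq GRCm38.p6 plus strand, 200 bp around the summit in the library where the peak ranked highest, with annotated UTR bases left out, which removed 91 bases at Hal and none at the others. The name gives the distance of the site centre from the gene start, negative when upstream. Capitals mark the single GR word AGAACA on either strand and GRE-like stretches, which are AGAACA, any 3 bases and TGTTCT with at most 2 mismatches in the 12 fixed letters.
Tat -2.87 kb, chr8:109987860-109988059: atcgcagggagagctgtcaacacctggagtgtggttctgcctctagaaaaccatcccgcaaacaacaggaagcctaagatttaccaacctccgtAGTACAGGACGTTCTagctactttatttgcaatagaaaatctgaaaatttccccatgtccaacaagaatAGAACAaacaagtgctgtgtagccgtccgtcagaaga
Got1 -1.028 kb, chr19:43524784-43524983: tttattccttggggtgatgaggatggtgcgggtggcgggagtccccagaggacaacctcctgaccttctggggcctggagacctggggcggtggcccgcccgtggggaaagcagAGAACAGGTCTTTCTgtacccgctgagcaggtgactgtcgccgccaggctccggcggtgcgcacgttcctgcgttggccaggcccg
Gpt 0.714 kb, chr15:76696066-76696265: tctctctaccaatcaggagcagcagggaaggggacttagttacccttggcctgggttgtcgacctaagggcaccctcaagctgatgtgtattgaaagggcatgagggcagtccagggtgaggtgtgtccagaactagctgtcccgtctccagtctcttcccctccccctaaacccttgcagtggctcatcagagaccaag
Sds -4.176 kb, chr5:120471645-120471844: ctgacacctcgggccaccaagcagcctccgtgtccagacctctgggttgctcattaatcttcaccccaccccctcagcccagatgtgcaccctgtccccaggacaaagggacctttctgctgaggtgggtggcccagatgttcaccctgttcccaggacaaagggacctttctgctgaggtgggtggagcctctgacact
Tdo2 -14.06 kb, chr3:81990572-81990771: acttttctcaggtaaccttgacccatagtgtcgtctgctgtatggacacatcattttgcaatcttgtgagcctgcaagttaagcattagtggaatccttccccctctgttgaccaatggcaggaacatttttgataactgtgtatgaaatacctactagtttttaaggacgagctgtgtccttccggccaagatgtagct
Gls2 7.668 kb, chr10:128201926-128202125: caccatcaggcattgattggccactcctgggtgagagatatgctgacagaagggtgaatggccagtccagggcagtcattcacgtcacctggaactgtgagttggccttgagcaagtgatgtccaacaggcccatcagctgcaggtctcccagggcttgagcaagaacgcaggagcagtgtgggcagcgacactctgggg
Hal -0.144 kb, chr10:93488659-93488767: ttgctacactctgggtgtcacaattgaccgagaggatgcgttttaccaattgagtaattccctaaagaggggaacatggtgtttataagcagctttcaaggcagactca

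In these windows a GRE-like stretch with 2 mismatches was found at Tat and at Got1, and the Tat window also held the single GR word elsewhere. The printed windows of Gpt, Sds, Tdo2, Gls2 and Hal held neither of these words, which says only that these letters are not there. The C/EBP word TTGCNNAA, which may hold any base at N and was searched on both strands, was found in the Tdo2 window and in the Gls2 window, where it occurred 2 times.

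The sites at Got1, Gpt and Hal had their summit within 1 kb of the gene start, whereas those of Tat, Sds, Tdo2 and Gls2 did not. The Tat site, chr8:109985870-109989263, lay upstream of the gene in intergenic DNA with its centre at -2.87 kb. The Got1 site, chr19:43524207-43527059, was centred at -1.028 kb with an intergenic summit. The Gpt site, chr15:76694417-76698442, was centred 0.714 kb inside the annotated gene, upstream of the transcript in the basic annotation set. The Hal site, chr10:93487730-93489517, covered the gene start. The Sds site, chr5:120471288-120473412, was centred at -4.176 kb in an intron of the neighbouring Sdsl, which encodes a related serine dehydratase-like protein. The Tdo2 site, chr3:81989470-81991059, was intergenic at -14.06 kb and closer to the start of Asic5. The Gls2 site, chr10:128201180-128203070, lay in a Gls2 intron at 7.668 kb. The map of sites by distance shows all 113 around these starts.

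**Figure D1:**
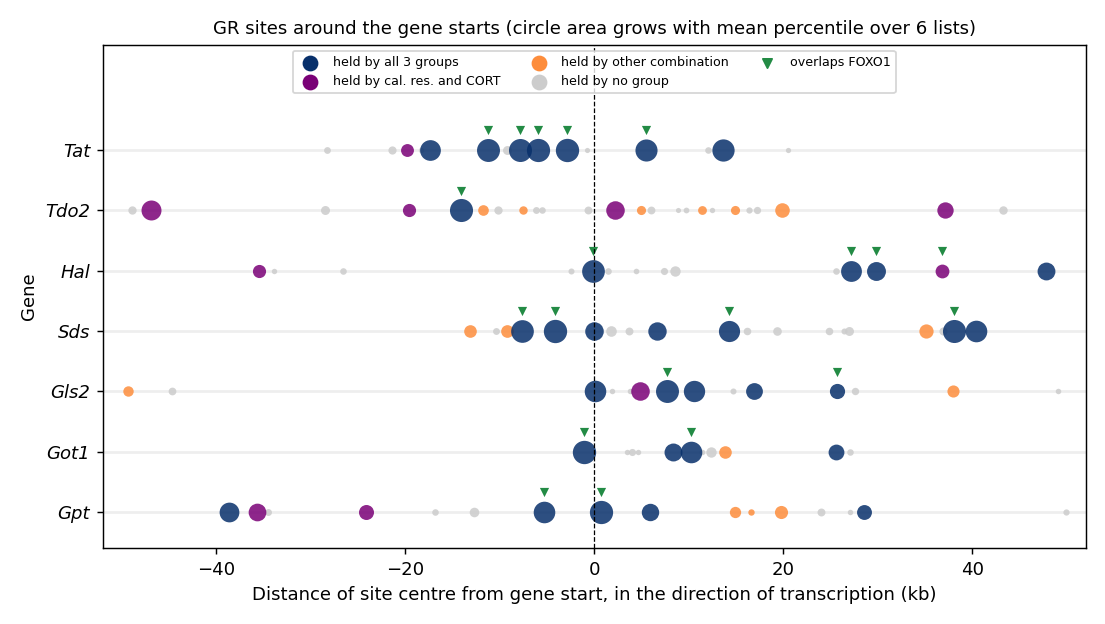
GR sites within 50 kb of 7 gene starts, placed by the distance of the site centre from the gene start in the direction of transcription (kb). Circle area grows with the mean percentile over the 6 lists, colour gives the groups that held the site, and green triangles mark overlap with a FOXO1 peak. The large dark circles, held by all 3 groups, number 33 in all, and 19 of them carry a triangle.

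These sites were chosen by their mean percentile over the 6 lists, so a peak in all 6 libraries follows from the choice, and their values are a description. At the Tat site the percentiles were 99.8 and 95.9 in ctrl. livers, 99.8 and 99.8 under cal. res., and 99.6 and 99.9 under CORT. Its fold enrichment was 60 and 11.4 in ctrl. livers, 92.0 and 71.9 under cal. res., and 56.3 and 141 under CORT. The low value belongs to ctrl. replicate 2, the shortest list, and the groups overlapped in rank.

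The Got1 site had percentiles of 99.6 and 98.4 in ctrl. livers, 99.7 and 99.5 under cal. res., and 99.8 and 99.3 under CORT. At Gpt they were 99.0 and 96.9 in ctrl. livers, 98.5 and 98.5 under cal. res., and 98.9 and 99.7 under CORT. For both aminotransferases the cal. res. values lay inside the range of the ctrl. values or within 1 point of it. At Gpt both CORT values were above both cal. res. values.

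The Sds site had percentiles of 99.5 and 98.6 in ctrl. livers, 99.6 and 99.6 under cal. res., and 98.2 and 99.8 under CORT. At Tdo2 they were 98.8 and 92.4 in ctrl. livers, 96.4 and 97.7 under cal. res., and 98.6 and 98.6 under CORT. At Sds both cal. res. values were above both ctrl. values, by a fraction of a point at the nearest pair, while at Tdo2 the ctrl. values spanned both cal. res. values.

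At the intronic Gls2 site the percentiles were 99.0 and 97.8 in ctrl. livers, 96.0 and 85.2 under cal. res., and 98.7 and 99.3 under CORT. Both cal. res. libraries were thus below the other 4. At Hal they were 98.6 and 80.2 in ctrl. livers, 97.4 and 96.4 under cal. res., and 93.0 and 98.2 under CORT, and the groups overlapped.

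By the highest percentile within 50 kb in each list, averaged over the 6 lists, the order was Tat (99.5), Got1 (99.4), Sds (99.2), Gpt (98.6), Tdo2 (97.1), Gls2 (96.0) and Hal (94.0). Tat, Got1 and Sds differed by less than the spread of each over the lists, since Tat ranged from 97.8 to 99.9 in these values, Got1 from 98.4 to 99.8 and Sds from 98.2 to 99.8. The protein-coding genes with the profile most like that of Tat, among those sharing no site with it, were Kdf1 and Nudc, each with a mean absolute difference of 0.170 points over the 6 lists. For Hal they were Cyp2d9, at 0.698 points, and Cyp8b1, at 1.08 points.

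Whole neighbourhoods differed in how many sites they held. Tdo2 had 24 sites, Sds 19, Gpt 16, Tat 15, Gls2 14, Hal 14 and Got1 11. Of the 21938 protein-coding genes, 99.5% had fewer sites than Tdo2 and 88.2% had fewer than Got1. The Got1 sites were the only set, among these 7, with no other protein-coding start within 50 kb, while 9 other starts lay that close to Gpt. The member was the nearest protein-coding start for 51 of the 113 sites, including all 11 at Got1, 12 at Tdo2, 10 at Tat, 7 at Hal, 5 at Gls2, 4 at Sds and 2 at Gpt. Distance alone does not tie a site to a gene.

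For the question of whether the treatments altered GR occupancy at these genes, sites with a peak were counted in each library. Member sites numbered 62 and 38 in ctrl. livers, 47 and 57 under cal. res., and 61 and 99 under CORT. Group means were 50 ± 17 (SD, n = 2), 52 ± 7.07 (SD, n = 2) and 80 ± 26.9 (SD, n = 2). The 3 groups did not differ beyond the spread between libraries (two-sided exact permutation test over 15 groupings, p = 0.467, smallest possible p = 0.0667). Pairwise exact permutation tests gave p = 1.0 for cal. res. against ctrl., 0.667 for CORT against ctrl. and 0.333 for cal. res. against CORT, and 2 libraries against 2 cannot go below 0.333. Within a name series, cal. res. minus ctrl. was 14 sites and CORT minus ctrl. was 18 sites, each against 1 ctrl. library and so with no test. The list length moves with these counts: as a share of all sites in the library, member sites made up 0.178% and 0.331% in ctrl. livers, 0.227% and 0.329% under cal. res., and 0.221% and 0.262% under CORT. With the 12458 strongest regions of each library, the counts were 32 and 39, 35 and 40, and 33 and 41.

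**Figure D2:**
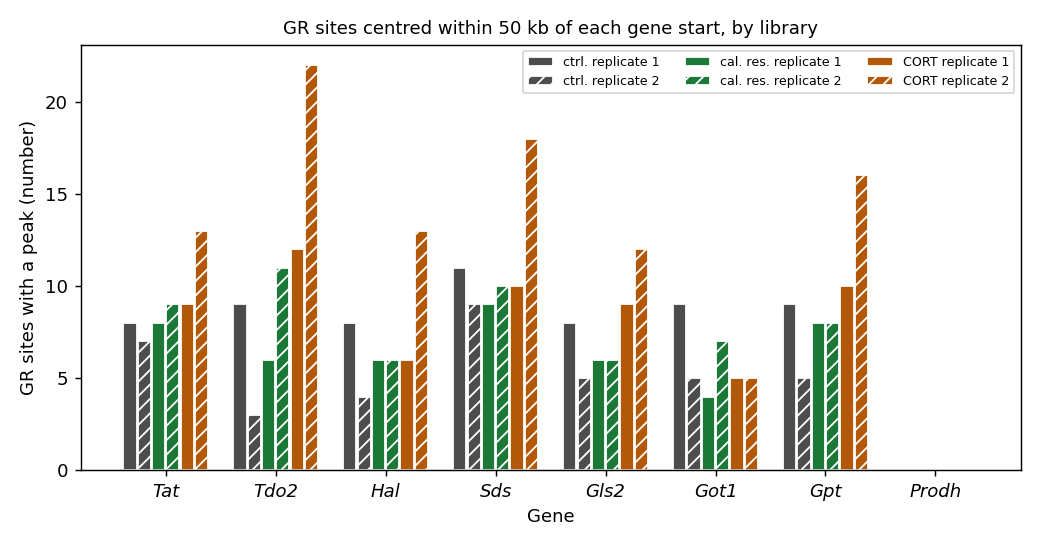
Number of GR sites with a peak within 50 kb of each gene start (vertical axis) in each of the 6 libraries, with solid bars for replicate 1 and hatched bars for replicate 2. CORT replicate 2 had the most sites at 6 of the 7 genes, from 12 at Gls2 to 22 at Tdo2. At Got1 it had 5, against 9 in ctrl. replicate 1, and Prodh has no bar.

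Tdo2 showed the widest span, with 9 and 3 sites in ctrl., 6 and 11 under cal. res., and 12 and 22 under CORT. Both CORT libraries were above the other 4 there, at a gene named here for its wide span. The share of all genes with this order was not computed, so the order is not shown to be particular to Tdo2. With equal list lengths Tdo2 had 8 sites, of which ctrl. held 1, cal. res. 4 and CORT 5. Got1 ran otherwise, with 9 and 5 in ctrl. livers, 4 and 7 under cal. res., and 5 and 5 under CORT. At Tat the counts were 8 and 7, 8 and 9, and 9 and 13 in the same order of groups. CORT replicate 2 alone supplied 33 of the 45 member sites that had a peak in 1 library, and such sites made up 39.8% of member sites and 37.4% of all sites.

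Of the 58 member sites held by at least 1 group, 33 were held by all 3. Member sites held by ctrl. numbered 37, by cal. res. 44 and by CORT 56, and 33 of the 113 (29.2%) were held by all 3 groups, where the share over all sites was 15.7%. Tat and Sds had 7 such sites each, Gls2 and Gpt 5 each, Got1 and Hal 4 each, and Tdo2 had 1. With equal list lengths 22 of 53 member sites (41.5%) were held by all 3 groups, against 22.6% of all sites.

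At Tat the 7 shared sites ran from -17.39 to 13.61 kb, and 5 of them overlapped FOXO1. Besides the highest-ranked site, those at -5.939 kb and -7.812 kb were above percentile 90 in all 6 lists. At -5.939 kb the percentiles were 99.8 and 97.8 in ctrl. livers, 98.7 and 98.9 under cal. res., and 94.3 and 99.5 under CORT. The site at 5.487 kb, chr8:109989992-110001856, spanned the whole Tat gene. Its summit in CORT replicate 2, where it ranked highest, lay at the gene start (chr8:109990435). The longest peak on the gene was 11370 and 5155 bp in ctrl. livers and 2196 and 3485 bp under cal. res. Under CORT it was 11673 and 11865 bp, so the percentiles rank peaks of unlike width. At this site the percentiles were 96.6 and 86.4 in ctrl. livers, 71.2 and 82.0 under cal. res., and 96.2 and 99.2 under CORT. Both cal. res. libraries thus ranked below the other 4.

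At Sds, shared sites lay at the gene start (-0.045 kb), in the gene (6.651 kb), in an intron of Plbd2 (14.28 kb) and in introns of Slc8b1 (38.11 and 40.43 kb), besides those in Sdsl at -7.662 and -4.176 kb. The site at the start of Sds had percentiles of 73.6 and 52.9 in ctrl. livers, 22.9 and 47.6 under cal. res., and 74.7 and 94.1 under CORT, in 3 ranges that did not overlap. The site at 14.28 kb had 73.8 and 53.9 in ctrl. livers, 90.1 and 83.3 under cal. res., and 87.6 and 96.3 under CORT, where both treatments ranked above ctrl. These 2 sites thus took different orders, and the one at 14.28 kb was closer to the start of Plbd2. Over all sites with a peak in all 6 libraries, both ctrl. percentiles were above both cal. res. at 20.6%, and the reverse held at 11.5%.

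At Gls2 the promoter site at 0.061 kb had percentiles of 84.4 and 62.3 in ctrl. livers, 84.7 and 76.6 under cal. res., and 97.5 and 98.7 under CORT. Both CORT libraries were above the other 4. Within Hal, the site at 27.19 kb had 96.4 and 39.4 in ctrl. livers, 92.3 and 90.1 under cal. res., and 68.0 and 81.9 under CORT, with both cal. res. above both CORT libraries. The heat map of percentiles gives these values for each site that a group held.

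**Figure D3:**
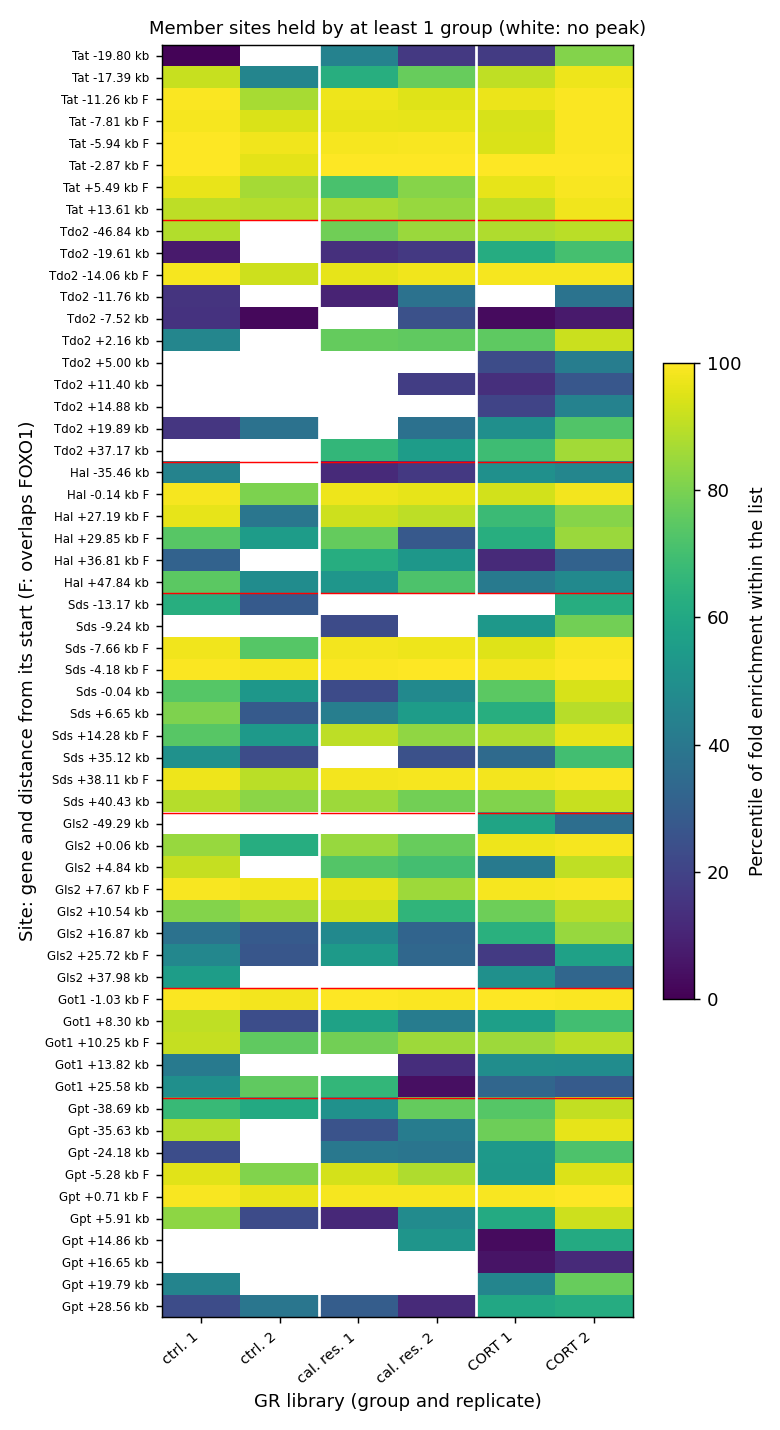
Percentile of fold enrichment within each list (colour, 0 to 100) for the 58 member sites held by at least 1 group, in rows by gene and distance from the gene start, and the 6 GR libraries in columns. White marks a library with no peak, F marks overlap with FOXO1, and red lines part the genes. The bright rows, such as Tat -2.87 kb and Got1 -1.03 kb, were bright in all 6 libraries, and ctrl. replicate 2 has more white cells than any other library.

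Over the 33 sites shared by all 6 libraries, the median percentile was 91.1 and 75.8 in ctrl. livers, 87.4 and 83.3 under cal. res., and 87.6 and 96.3 under CORT. Over all 8097 such sites of the genome it was 85.7 and 61.3, 76.3 and 71.5, and 81.9 and 87.1. Group means were 83.4 ± 10.8 in ctrl. livers, 85.4 ± 2.90 in cal. res. and 92.0 ± 6.12 under CORT (SD, n = 2 each; exact permutation test over 15 groupings, p = 0.667). Within a name series, cal. res. minus ctrl. was 9.59 points and CORT minus ctrl. was 0.875 points. Both cal. res. values were above both ctrl. values at 3 of the 33 sites, against 11.5% of all such sites, and both CORT above both ctrl. at 8 of 33, against 26.6%. Both ctrl. were above both cal. res. at 4 of 33, against 20.6%, and above both CORT at 2 of 33, against 5.2%. Both CORT were above both cal. res. at 12 of 33, against 46%, and the reverse held at 2 of 33, against 9%. None of these shares stood far above that of all sites. The 3 sites where cal. res. ranked above ctrl. all lay around Sds, at -4.176, 14.28 and 38.11 kb. All 3 overlapped FOXO1, as did 19 of the 33 sites (57.6%), so nothing is drawn from that overlap. At -4.176 kb the nearest pair of percentiles was 99.56 in cal. res. against 99.45 in ctrl.

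Gains were no more frequent at these genes than elsewhere. In cal. res. 11 member sites (9.73%) were gained, against 11.5% of all sites, and in CORT 20 (17.7%) were gained, against 24.3%. With equal list lengths the gains were 7 (13.2%, against 16.0% of all sites) and 6 (11.3%, against 15.2%). Ctrl. replicate 1 had a peak at 10 of the 11 sites gained in cal. res. and at 12 of the 20 gained in CORT, against 91.8% and 81% of all sites gained in each, so most gains turned on ctrl. replicate 2. Without ctrl. replicate 2 the gains were 1 in cal. res. and 8 under CORT.

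Of the 8 gains with no peak in either ctrl. library, only those with a GRE-like stretch are shown as DNA. The windows are 100 bp around the summit, with capitals as above. No such stretch was found in the windows of the other gains, from which annotated UTR bases were left out. The Tdo2 window holds the complete palindrome with 0 mismatches, and the Gls2 window a stretch with 2.
Tdo2 37.17 kb, chr3:81939004-81939103: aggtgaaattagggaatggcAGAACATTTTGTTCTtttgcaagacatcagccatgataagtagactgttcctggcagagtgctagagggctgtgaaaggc
Gls2 -49.29 kb, chr10:128145114-128145213: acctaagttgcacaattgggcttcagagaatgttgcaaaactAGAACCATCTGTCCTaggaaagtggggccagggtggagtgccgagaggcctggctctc

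The Tdo2 site at 37.17 kb, chr3:81938840-81939225, lay in an intron of Ctso, a cathepsin gene, and was the one member site that cal. res. gained with no ctrl. peak. Its percentiles were 66.4 and 55.1 in cal. res. and 69.1 and 86.2 under CORT, with fold enrichments of 7.35, 5.35, 8.86 and 12.5. Both ctrl. libraries had no peak there. It did not overlap FOXO1, and Ctso has the nearest gene start. The other gains around Tdo2 in cal. res. lay at -46.84, -19.61, -11.76 and 2.164 kb, and each had a peak in ctrl. replicate 1. The site at 2.164 kb, which reached the gene start, had 45.9 in ctrl. replicate 1, no peak in ctrl. replicate 2, 76.3 and 75.4 under cal. res., and 75.4 and 92.1 under CORT.

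Of the 8 CORT gains with no ctrl. peak, 7 were not held by cal. res. Those at 5.003, 11.4 and 14.88 kb lay in Tdo2 introns, with CORT percentiles from 13.5 to 44.5. The remaining 4 lay at -9.245 kb from Sds, -49.29 kb from Gls2, and 14.86 and 16.65 kb from Gpt. Of the 7, the sites at Gpt 14.86 kb, Sds -9.245 kb and Tdo2 11.4 kb had a peak in 1 cal. res. library. The cal. res. percentiles there were 52.3, 22.9 and 18.3 in turn. The Gls2 site, in an intron of Rbms2, had percentiles of 58.4 and 36.2 under CORT and no peak in the other 4 libraries. Sites held by 1 group alone numbered 10 under CORT, 1 in cal. res. (Tdo2 -11.76 kb) and 1 in ctrl. (Sds -13.17 kb), where the shares over all sites were 15.2%, 2.39% and 1.4%. The highest percentile among their peaks was 78.7, in CORT replicate 2 at -9.245 kb from Sds.

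Peaks also covered the gene bodies to different extents, a measure added after the data were seen. Peaks covered 100% and 85.8% of the Tat gene in ctrl., 26.2% and 85.1% under cal. res., and 100% and 100% under CORT. Both cal. res. libraries were below the other 4, though one of them by less than 1 percentage point (exact permutation test, cal. res. against ctrl., p = 0.333, the smallest possible). In each library at least 99.66% of protein-coding genes had less cover than Tat. The Tdo2 gene was covered to 8.60% and 1.62% in ctrl. livers, 1.94% and 11.8% under cal. res., and 39.4% and 52.7% under CORT. Its 2 CORT values stood above the other 4 (exact permutation test, CORT against ctrl., p = 0.333).

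The Sds gene was covered to 37.8% and 11.6% in ctrl. livers, 6.94% and 13.9% under cal. res., and 12.2% and 81.7% under CORT, where the groups overlapped. Gpt was covered to 59.5% and 35.1%, 39.9% and 40.5%, and 55.8% and 68.7% in the same order. Among the 7 genes with cover, both CORT libraries exceeded both cal. res. libraries at 5 (Tat, Tdo2, Gls2, Gpt and Hal), against 54.3% of protein-coding genes with cover in a library. Both CORT exceeded both ctrl. at 1, Tdo2, against 18.7%, and both ctrl. exceeded both cal. res. at 1, Tat, against 15%. The mean cover over all genes was 5.51% and 1.56% in ctrl. livers, 1.96% and 1.84% under cal. res., and 4.25% and 6.54% under CORT, and its part in these values was not tested.

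**Figure D4:**
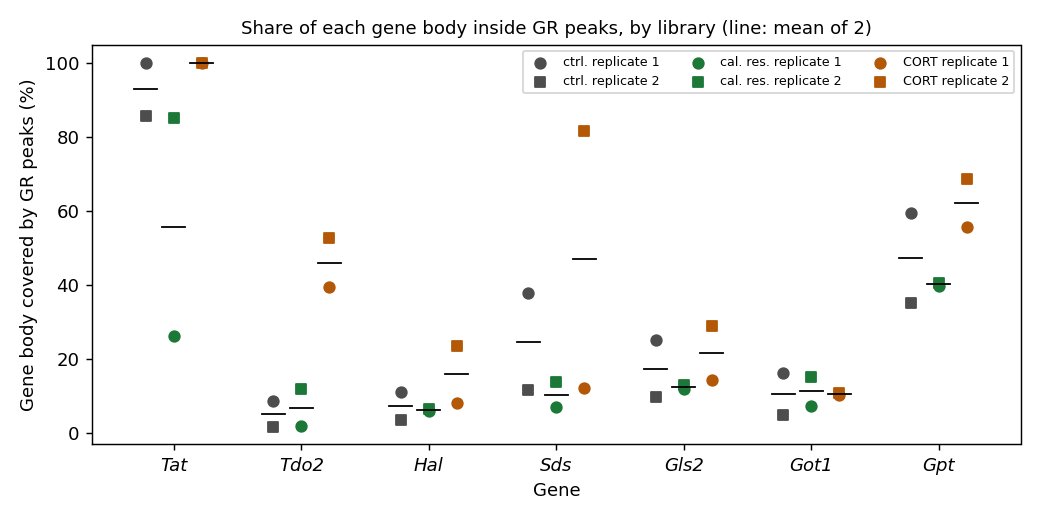
Percent of each gene body inside GR peaks (vertical axis) for 7 genes, with circles for replicate 1, squares for replicate 2 and a line at the mean of each group of 2. Tat reached 100% in 3 libraries and 26.2% in cal. res. replicate 1, and the 2 CORT values at Tdo2, 39.4% and 52.7%, lie above its other 4.

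FOXO1 in cal. res. livers overlapped 20 member sites, of which 19 were held by all 3 groups, against 57.5% of all sites with FOXO1. These 20, which overlapped a FOXO1 peak by at least 1 bp, made up a share of the 113 (17.7%, exact Clopper-Pearson 95% interval 11.2 to 26%, counting error only), where the share over all sites was 13.9%. Of the 33 sites held by all 3 groups 19 overlapped FOXO1 (57.6%), against 50.7% of all such sites. All 23 FOXO1 regions within 50 kb of the genes overlapped a GR site, against 93.6% of all FOXO1 regions. The highest-ranked site overlapped FOXO1 at 7 of 7 genes, where it did so at 30.3% of protein-coding genes with a site. Among genes whose highest-ranked site had a mean percentile of at least 90, as all 7 members had, the share was 86.6%, so the members were close to other genes with strong GR sites.

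The FOXO1 percentile at these 7 sites was 99.4 at Tat, 96.3 at Hal, 95.7 at Got1, 94.4 at Gls2, 88.6 at Sds, 88.0 at Tdo2 and 67.5 at Gpt. Shared sites with FOXO1 ranked higher for GR than those without it in each library. The median percentile over the 19 sites with FOXO1 and the 14 without was 98.5 and 81.0 in ctrl. replicate 1, and 87 and 50.8 in ctrl. replicate 2. In cal. res. it was 96.8 and 55.0 in replicate 1, and 96.4 and 60.2 in replicate 2. In CORT it was 95.3 and 68.6, and 99.2 and 90. The gap was thus present in ctrl. and CORT lists too, although FOXO1 was mapped in cal. res. livers. The same split over all shared sites was not computed, so the gap is not shown to be particular to these genes. Genome-wide, the paper reports stronger GR signal at loci that FOXO1 also bound than at GR loci without it. It measured tag density, whereas ranks within a list are given here. The paper also reports a larger rise of GR signal from ctrl. to cal. res. at GR sites with FOXO1 than at those without. That change in signal was not computed here.

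The 1 gained member site with FOXO1, of 21 gained in either treatment (14.9% of all such sites overlapped FOXO1), lay 36.81 kb from Hal, chr10:93525319-93525844, in an intron of Amdhd1, a gene of the histidine pathway downstream of Hal. Its FOXO1 percentile was 98.8. Its GR percentile was 31.4 in ctrl. replicate 1, with no peak in ctrl. replicate 2, 62.3 and 52.8 under cal. res., and 11.7 and 31.5 under CORT. Both cal. res. libraries were above the other 4, but a gained site lacks a peak in at least 1 ctrl. library by definition. The share of all gained sites with this order was not computed.

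The share of member sites with FOXO1 in each GR library was 32.3% and 50% in ctrl. livers, 42.6% and 35.1% under cal. res., and 32.8% and 20.2% under CORT. The group means were 41.1 ± 12.5%, 38.8 ± 5.28% and 26.5 ± 8.90% (SD, n = 2 each; exact permutation test over 15 groupings, p = 0.467). Within a name series, cal. res. minus ctrl. was -11.2 percentage points and CORT minus ctrl. was -5.76 percentage points. Over all sites of the same libraries it was 19.4% and 39.1%, 30.6% and 34.3%, and 22.9% and 17.8%, and there the share went down with each longer list. At 12458 regions per library it was 56.2% and 48.7%, 57.1% and 47.5%, and 51.5% and 43.9% for member sites.

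In the 200 bp windows of all 113 member sites, 10.6% held a GRE-like stretch, against 3.35% of the windows of all sites. It was found in 4 of the 33 sites shared by all groups, and in 3 of the 21 gained in either treatment. The single GR word AGAACA was found in 23.9% against 18.4%, and the C/EBP word in 15.9% against 15.1%. The FOX words TGTTTAC and TATTTAC were found in 4.42% against 8.71%, and in 3 of the 20 sites that overlapped FOXO1. For the shared, gained and FOXO1 sites, the share over all sites of the same kind was not computed. The STAT word TTCNNNGAA was found in 6.19% against 8.16%. All words were searched on both strands, and a GRE-like stretch can contain the single word too. The median GC content of the windows was 49.0% in both sets.

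Set beside other genes, the members combined many sites with strong ones. A site was listed for 7 of the 8 members, against 73.2% of protein-coding genes, and a site held by all 3 groups for 7, against 37.9%. A site gained in cal. res. lay near 5, against 27.1%, and a site gained in CORT near 7, against 48.9%. A site with FOXO1 lay near 7, against 31.2%. A site above percentile 90 in all 6 lists, a limit chosen after the values were seen, lay near 5 (Tat, Got1, Sds, Gpt and Tdo2), against 4.36%. The members were also chosen with earlier results of these data known, so these contrasts are a description only. Members had a median of 14.5 sites, and protein-coding genes a median of 3, so a gene with more sites had more chances to have each kind.

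The 50 other genes of amino acid breakdown were listed by function, also with earlier results of these data known. Of these, 50 had a site, 41 one held by all 3 groups, 32 one gained in cal. res., 42 one gained in CORT and 41 one with FOXO1. Their median was 8 sites. In 8 of them, Glud1, Hpd, Sdsl, Gldc, Gpt2, Afmid, Haao and Acmsd, a site was above percentile 90 in all 6 lists. Glud1, which encodes glutamate dehydrogenase, had a mean highest percentile of 99.6, and Hpd, which acts after Tat in tyrosine breakdown, had 99.3. Sdsl shares all 19 sites with Sds. Prodh2, a relative of Prodh that acts on hydroxyproline, had 9 sites and a mean highest percentile of 49.5.

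**Figure D5:**
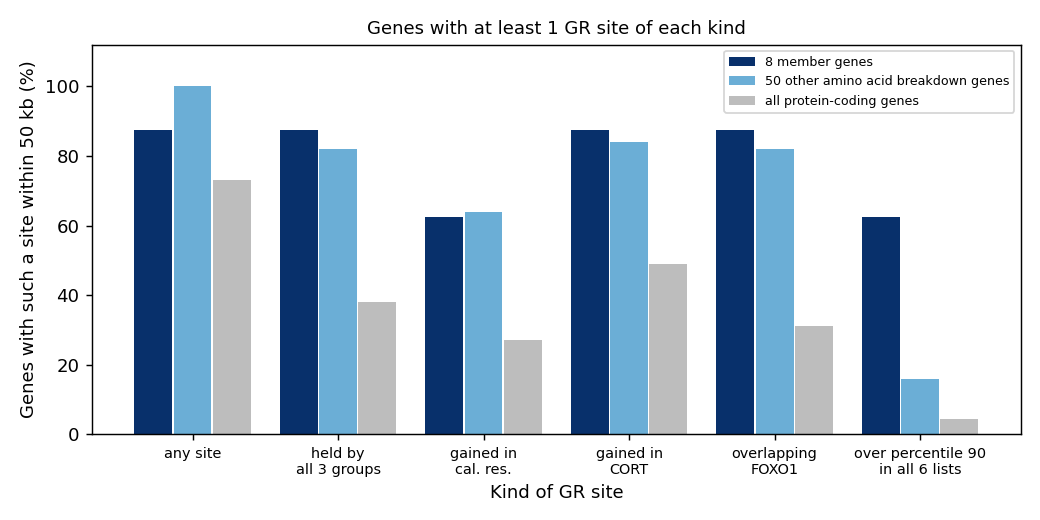
Percent of genes (vertical axis, from 0) with at least 1 GR site of each kind within 50 kb of the gene start, for the 8 member genes, 50 other amino acid breakdown genes and all 21938 protein-coding genes. The bars for a site above percentile 90 in all 6 lists differ most in proportion, with 5 of 8 members, 16.0% of the other genes and 4.36% of all genes. That limit was chosen after the values were seen, and both short gene lists with earlier results of these data known.

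Prodh had no listed GR or FOXO1 peak within 50 kb of its start, and the nearest site in the lists lay 162 kb away. Nothing is drawn from this about binding there, since the lists hold only regions above a threshold and may have been used here in part.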

How the data were processed

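Per the study's methods, the authors aligned reads to mm10 (BWA), filtered out duplicate and multiply mapped reads, called peaks with MACS2 and removed blacklisted regions (not stated for the FOXO1 list by itself). GR peaks were called per library and FOXO1 peaks on merged reads of 2 libraries. Use of an input control was not given in the sources used here. Fold enrichment in the deposited lists is the ratio of the pileup at a summit to the background around it. The deposited p-values and q-values, given as -log10, come from the caller. The largest q-value was 0.0993 to 0.0998 in the GR lists and 9.84e-06 in the FOXO1 list.

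Rows with the same start and end were kept once, at their strongest summit, and regions sharing at least 1 bp were merged. Gene starts came from gene rows of the basic GENCODE M21 set. Groups followed the sample titles. Group values were compared with two-sided exact permutation tests over libraries, and counts were described beside all sites. The 8 members and the list of other genes were chosen with earlier results of these data known. Of 51 other genes 50 matched a single entry. The text names, for each member, the highest-ranked site and sites that were gained or shared. Sequence was to be shown for each member's highest-ranked site and for all 8 gains with no ctrl. peak, but of the latter only the windows with a GRE-like stretch are printed. Alternatives were a q of at most 0.01, equal list lengths, a 20 kb window, nearest starts, presence in either library, stronger FOXO1 regions, a single name series, absent sites at percentile 0, ranks by p-value, a replicate block and leaving out each library. The steps were tested on simulated data. SciPy 1.17.1, pandas 2.3.3, NumPy 2.4.6, samtools 1.23.1, matplotlib 3.10.9 and Python 3.11.15 were used.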

Additional observations from a re-analysis of the deposited data

How the results depend on the processing

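No comparison between groups passed a threshold of 0.05 under any setting, and a design of 2 libraries against 2 cannot reach it. Of the recomputed values, 13 changed direction, 20 moved and 148 did neither. Part of the 148 could not change. A replicate block keeps the group means, and leaving out a library leaves many values that do not use it as they were. The 148 are thus no measure of how stable the results are. Peak number limits all counts, and the depth of each library is unknown.

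With equal list lengths, cal. res. minus CORT was 0.5 sites per library, sites held by CORT numbered 32, and the sites gained were 7 (cal. res.) and 6 (CORT). With sites whose nearest gene start is the member, cal. res. minus ctrl. was -1.5 sites, -2.08 percentile points and 2.36 percentage points of FOXO1 share. The counts were then 18 held by ctrl., 19 by cal. res., 24 by CORT and 17 by all 3 groups, with 2 gained in cal. res., 6 gained in CORT and 11 with FOXO1. For the median percentile, cal. res. minus ctrl. was -0.637 points within 20 kb and -0.956 points with absent sites at 0. With presence in either library of a group, 63 sites were held by ctrl., 104 by CORT and 50 by all 3 groups, and 48 were gained in CORT. The causes were not tested, beyond the fewer or more sites that each setting leaves by construction.

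Leaving out each library in turn gave -10.0 to 14 sites for cal. res. minus ctrl., 11 to 49.0 for CORT minus ctrl. and -47.0 to -9.0 for cal. res. minus CORT. For the median percentile it gave -11.8 to 9.59 points, -3.77 to 16.2 and -10.9 to -2.29, and for the FOXO1 share -11.2 to 6.56 percentage points, -23.5 to -5.76 and 6.03 to 18.6. Counts ran from 37 to 62 held by ctrl., 44 to 57 by cal. res., 56 to 99 by CORT and 33 to 42 by all 3 groups. Gains ran from 1 to 21 in cal. res. and from 8 to 62 in CORT. Without ctrl. replicate 2, cal. res. minus ctrl. was -10.0 sites, -11.8 points and 6.56 percentage points, CORT minus ctrl. was -3.77 points, ctrl. held 62 sites and gains were 1 and 8. Without cal. res. replicate 1 the difference from ctrl. was -2.24 points and 21 sites were gained. Without cal. res. replicate 2 it was -3.0 sites and 1.42 percentage points. Without CORT replicate 1, CORT held 99 sites and gained 62.

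The replicate numbers were not shown to pair the libraries. Deviations of same-numbered libraries correlated at -0.0469 (cal. res. and ctrl.), -0.125 (CORT and ctrl.) and 0.0737 (cal. res. and CORT) over 8097 sites. With the replicate block the differences in sites were 2.0, 30.0 and -28.0, in percentile 1.92, 8.54 and -6.62, and in FOXO1 share -2.31, -14.6 and 12.3, with p of at least 0.5, the smallest the block allows. A crossed pairing of the ctrl. numbers, chosen after seeing the data, put 0 of 3 comparisons past the threshold.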
